A study of Mus musculus with 8 samples.

Results

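The troponin genes encode the calcium switch of striated muscle, and all 8 of them were followed in hearts of mouse embryos at E10.5, a midgestation stage at which the looped heart is forming its chambers. The family holds 3 genes for troponin I (Tnni1, Tnni2, Tnni3), 3 for troponin T (Tnnt1, Tnnt2, Tnnt3) and 2 for troponin C (Tnnc1, Tnnc2). They were matched by Entrez gene ID, and all 8 were among the 27179 genes of the deposited table. All 8 also passed the filter on low counts, which left 15086 genes for testing. The family was chosen by name, but with the difference of Tnni2 between the genotypes already known. Differences of the 8 genes between the genotypes are therefore given as a description, and no test of them is offered as support.

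RNA came from whole embryonic hearts of 2 genotypes, each heart with a library of its own. The 3 hearts labelled MOZ KO are taken to have lost both alleles of Kat6a (Kat6a-/-), and the 5 labelled MOZ WT to be Kat6a+/+. The gene Kat6a has the older name Moz and encodes an enzyme that acetylates histones. The labels used here give no allele, strain, litter or sex of the embryos, and name no treatment for either genotype. Nothing says whether hearts of 1 genotype came from separate litters, so a p-value rests on the spread among these 8 hearts alone.

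Total counts ranged from 19911803 to 34539787 per heart, and no 2 of the 8 libraries agreed within sampling noise. The count of Kat6a over its whole gene was 132 to 140 CPM (a count relative to library size, here the raw total) in MOZ KO hearts and 138 to 157 CPM in MOZ WT hearts, and it does not check the genotype labels, because it is not known here which exons the allele lacks. Xist, the RNA of the inactive X chromosome, stood above 100 CPM of the raw total in 2 hearts, MOZ WT replicates 4 and 5. All MOZ KO hearts held Y-linked RNA instead. The log2 fold changes of Tnni2, Tnnt3, Tnnt1 and Tnni3 are therefore also given without MOZ WT replicates 4 and 5. So are the counts of several gene lists. Isoform shares, subunit totals and ratios are given only with these hearts. All other CPM values are relative to a library's scaled total. The sample descriptions number the MOZ KO hearts ahead of the MOZ WT hearts, and an effect of that order cannot be told apart from genotype. Cardiomyocyte genes were abundant in every heart, with a summed level over 14 markers of 24022 to 25849 RPKM (CPM per kilobase of gene length) in MOZ KO hearts and 21374 to 23977 RPKM in MOZ WT hearts. The tissue label thus had its defining markers.

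Troponin sits on the thin filament, where troponin C binds calcium, troponin I holds the filament off in the absence of calcium, and troponin T ties the complex to tropomyosin. Each subunit has forms named for the adult muscle in which they prevail. Tnnt2, Tnni3 and Tnnc1 serve the adult heart, and Tnnc1 serves slow skeletal fibres too. Tnni1 and Tnnt1 are the slow skeletal forms, and Tnni2, Tnnt3 and Tnnc2 the fast skeletal forms. The embryonic heart is known to use Tnni1 as its main troponin I and to replace it by Tnni3 around and after birth.

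The genes for troponin I and troponin T lie in pairs. On mm10, Tnni1 (chromosome 1, 135783033 to 135810989) and Tnnt2 (chromosome 1, 135836315 to 135852268) are 25.3 kb apart. Tnni2 (chromosome 7, 142441816 to 142444410) and Tnnt3 (chromosome 7, 142498771 to 142516213) are 54.4 kb apart near the far end of the chromosome. Tnni3 (chromosome 7, 4518305 to 4522718) and Tnnt1 (chromosome 7, 4504569 to 4515975) are 2.33 kb apart near its start. Tnnc1 (chromosome 14, 31208312 to 31211729) and Tnnc2 (chromosome 2, 164777161 to 164779734) have no such partner. Of the 8 genes, Tnnt3 shares 8001 bases with an annotated gene, Prr33, which held 250 counts over all hearts. The counting's strand setting is not given, so reads from the shared stretch cannot be told apart.

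RefSeq promoter windows of GRCm38.p6, from 250 bases before to 50 bases after a start site, were found for Tnni1 (2 windows), Tnnt2 (2 windows), Tnni3, Tnnt1, Tnnc1 and Tnnc2, and none were in the table for Tnni2 and Tnnt3. They were searched on both strands for the M-CAT motif CATTCC, a letter pattern that TEAD factors are known to bind in muscle promoters. One window of Tnnt2 and the window of Tnnc1 held 1 M-CAT each, against 14.7% of the 32851 windows of all genes, and the other 6 windows of the family held none. The 250 bases before the start site are shown for these 2 genes and for Tnnc2, the near-silent second troponin C gene. Both windows of Tnni1 begin inside the gene, at 135799171 and 135799261, so the bases around its lowest coordinate, 135783033, were not searched. Whether the M-CAT bears on the levels of these genes was not tested. Capitals mark the M-CAT, which reads GGAATG in Tnnc1 because it lies on the other strand. It ends 22 bases before the start site in Tnnt2 and 53 bases before it in Tnnc1.
Tnnt2, chr1:135836084-135836333, plus strand: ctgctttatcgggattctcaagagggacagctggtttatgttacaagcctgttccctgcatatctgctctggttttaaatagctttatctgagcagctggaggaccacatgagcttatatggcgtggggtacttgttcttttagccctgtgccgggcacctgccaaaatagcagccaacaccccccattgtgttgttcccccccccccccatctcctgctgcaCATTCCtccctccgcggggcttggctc
Tnnc1, chr14:31208062-31208311, plus strand: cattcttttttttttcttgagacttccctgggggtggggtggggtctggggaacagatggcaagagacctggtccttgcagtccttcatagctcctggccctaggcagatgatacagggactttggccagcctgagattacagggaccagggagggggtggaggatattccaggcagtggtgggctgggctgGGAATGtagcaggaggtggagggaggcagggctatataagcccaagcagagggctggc
Tnnc2, chr2:164779735-164779984, minus strand: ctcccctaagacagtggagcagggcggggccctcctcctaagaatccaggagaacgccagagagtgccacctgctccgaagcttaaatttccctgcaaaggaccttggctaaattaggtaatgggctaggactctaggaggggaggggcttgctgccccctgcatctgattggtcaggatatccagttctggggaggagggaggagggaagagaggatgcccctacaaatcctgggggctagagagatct
An E-box, CANNTG, was present in all 8 windows of the family and in 72.3% of all windows. The TATA pattern TATAAA was present in the window of Tnnt1 alone, against 13.6% of all windows. The GATA pattern AGATAA was present in 1 window of Tnnt2, against 11.2% of all windows. The MEF2 box was in no window of the family and in 3.19% of all windows. These matches describe letters and do not show that a factor was bound.

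In MOZ WT hearts the levels per length were led by the cardiac forms and by Tnni1. Tnnt2 averaged 2099 ± 82.7 RPKM, Tnni1 1446 ± 55.6 RPKM, Tnnc1 1066 ± 54.9 RPKM and Tnni3 567 ± 22.1 RPKM (SD, n = 5). Tnnt1 followed with 84.4 ± 7.95 RPKM, Tnni2 with 28.1 ± 1.64 RPKM, Tnnt3 with 9.46 ± 1.01 RPKM and Tnnc2 with 0.653 ± 0.294 RPKM. The ranges of neighbours in this order did not overlap, and the order was the same in 5 of 5 MOZ WT hearts. By level, Tnnt2 ranked 12 among the 15086 tested genes, Tnni1 19, Tnnc1 30 and Tnni3 54, while Tnnt1 ranked 784, Tnni2 3049, Tnnt3 7252 and Tnnc2 13152.

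**Figure D1:**
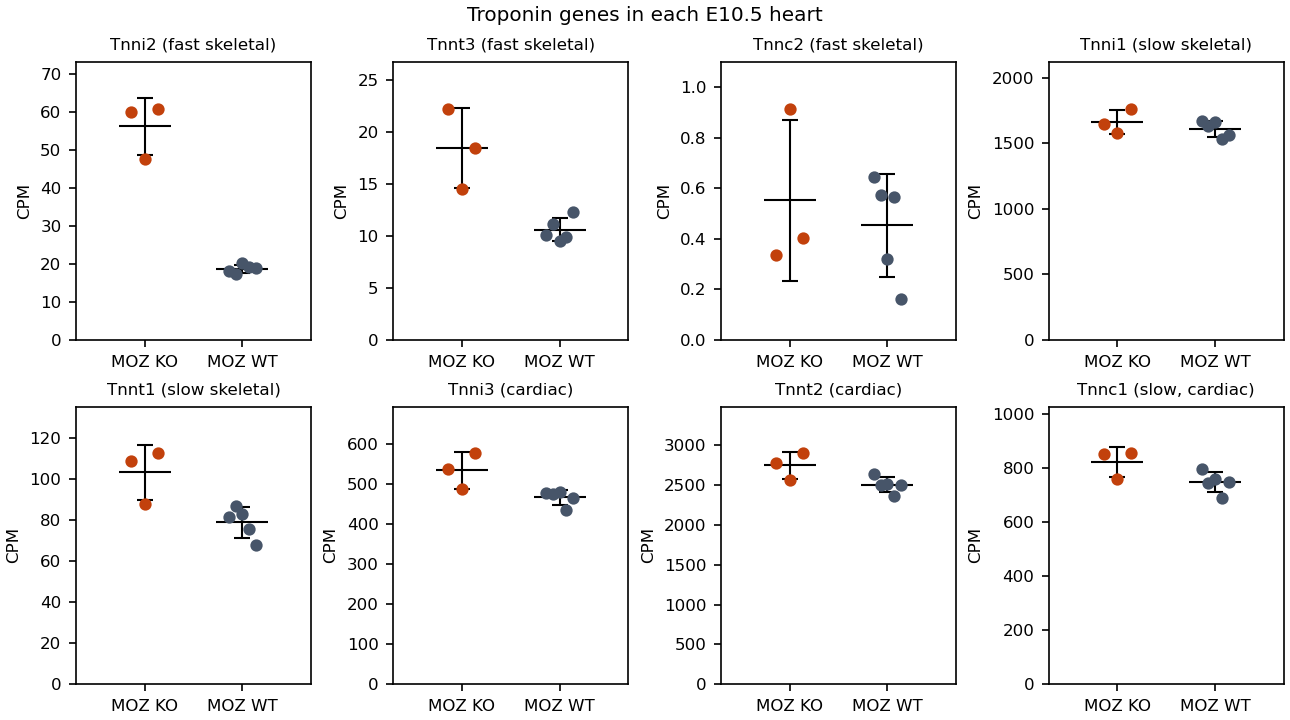
Level of each troponin gene in CPM on the vertical axis, with each axis starting at 0 and 1 point per heart, for MOZ KO (n = 3, left) and MOZ WT (n = 5, right) hearts; lines show the mean and bars the SD. Tnni2 stands at 47.6 to 60.9 CPM in MOZ KO hearts, against 17.2 to 20.2 CPM in MOZ WT hearts, and the points of Tnni1, Tnnt2, Tnnc1 and Tnnc2 overlap.

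The fast skeletal forms differed most between the genotypes. Tnni2 and Tnnt3 were higher in every MOZ KO heart than in any MOZ WT heart, by about 3.00-fold and 1.75-fold. The third fast form, Tnnc2, was barely detected in either genotype. Among the slow and cardiac forms, Tnnt1 and Tnni3 were higher by 1.31-fold and 1.15-fold without overlap, and Tnni1, Tnnt2 and Tnnc1 overlapped. In bulk tissue, more cells of a type and more RNA per cell cannot be told apart.

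Tnni2, the inhibitory subunit of fast fibres, stood at 60.0, 47.6 and 60.9 CPM in MOZ KO replicates 1 to 3, against 18.2, 17.2, 20.2, 19.1 and 19.0 CPM in MOZ WT replicates 1 to 5. The lowest MOZ KO heart was thus well above the highest MOZ WT heart, and the MOZ WT hearts lay close together. The raw counts behind these values were 937 to 1793 in MOZ KO hearts and 360 to 696 in MOZ WT hearts, so counting error was small. The log2 fold change was 1.58 ± 0.08 (SE), and 28 tested genes, Tnni2 included, had one at least as large.

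Tnnt3, which anchors the complex to tropomyosin in fast fibres, stood at 22.3, 14.5 and 18.5 CPM in MOZ KO replicates 1 to 3, against 10.1, 11.2, 9.51, 9.92 and 12.3 CPM in MOZ WT replicates 1 to 5. The groups did not overlap, but the lowest MOZ KO heart and the highest MOZ WT heart were near each other. The log2 fold change was 0.81 ± 0.12 (SE), and 207 tested genes had one at least as large. It was 0.64 without MOZ KO replicate 1, the heart with the highest value.

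Tnnc2, the calcium sensor of fast fibres, had 10, 18 and 9 counts in MOZ KO replicates 1 to 3, against 19, 12, 11, 13 and 4 counts in MOZ WT replicates 1 to 5. The groups overlapped, although MOZ KO replicate 2 was above every MOZ WT heart in CPM, at 0.552 ± 0.317 CPM in MOZ KO hearts (SD, n = 3) and 0.453 ± 0.204 CPM in MOZ WT hearts (SD, n = 5). At this depth a difference between them was not detectable (log2 fold change 0.25 ± 0.51, SE). The log2 fold change was -0.29 without MOZ KO replicate 2, so a single heart set its sign.

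Tnnt1, the slow skeletal troponin T, stood at 109, 87.8 and 113 CPM in MOZ KO replicates 1 to 3, against 81.4, 86.8, 82.8, 75.4 and 67.7 CPM in MOZ WT replicates 1 to 5. The groups were separate by a small margin, 87.8 CPM in the lowest MOZ KO heart against 86.8 CPM in the highest MOZ WT heart. The log2 fold change was 0.39 ± 0.09 (SE). Tnni1, the slow skeletal troponin I and the main embryonic form, stood at 1645, 1581 and 1765 CPM in MOZ KO replicates 1 to 3, against 1670, 1630, 1661, 1529 and 1562 CPM in MOZ WT replicates 1 to 5. Its groups overlapped, with a log2 fold change of 0.05 ± 0.05 (SE), the smallest of the family.

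Tnni3, the cardiac troponin I, stood at 539, 487 and 579 CPM in MOZ KO replicates 1 to 3, against 477, 475, 481, 436 and 467 CPM in MOZ WT replicates 1 to 5. The lowest MOZ KO heart lay just above the highest MOZ WT heart, and the log2 fold change was 0.20 ± 0.05 (SE). Tnnt2, the cardiac troponin T and a common marker of cardiomyocytes, stood at 2773, 2565 and 2905 CPM in MOZ KO replicates 1 to 3, against 2643, 2504, 2516, 2364 and 2503 CPM in MOZ WT replicates 1 to 5. Its groups overlapped, with a log2 fold change of 0.13 ± 0.05 (SE). Tnnc1, the cardiac and slow troponin C, stood at 854, 760 and 857 CPM in MOZ KO replicates 1 to 3, against 798, 746, 760, 691 and 750 CPM in MOZ WT replicates 1 to 5. Its groups overlapped too, with a log2 fold change of 0.14 ± 0.05 (SE).

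Counted over the family, 3 of 8 genes passed an adjusted p of 0.05 in edgeR's quasi-likelihood test over all genes, beside 2.67% of all tested genes. They were Tnni2, Tnnt3 and Tnni3, all higher in MOZ KO hearts, the direction in which 1.44% of all tested genes passed. In 4 of 8 genes every MOZ KO heart was above every MOZ WT heart, beside 4.77% of all tested genes. Because the family was chosen with this contrast known, nothing is read from these shares. All 8 log2 fold changes were above 0, with a median of 0.22, beside 49.9% above 0 and a median of -0.0001 over all tested genes. Tnni3 lay at the edge of the threshold with an adjusted p of 0.0492, and Tnnt1 just outside it with 0.0534 (edgeR, Benjamini-Hochberg). Without MOZ WT replicates 4 and 5 the log2 fold changes were 1.60 for Tnni2, 0.86 for Tnnt3, 0.31 for Tnnt1 and 0.17 for Tnni3, and Tnni3 was no longer past the threshold.

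On the absolute scale the order was different. Tnnt2 was higher by 202 RPKM in the mean of MOZ KO hearts, Tnnc1 by 106 RPKM and Tnni3 by 82.8 RPKM, against 56.1 RPKM for Tnni2 and 6.98 RPKM for Tnnt3. Tnnt2 and Tnnc1 overlapped between the genotypes and did not pass. Tnni1 was higher by 47.8 RPKM, Tnnt1 by 26.1 RPKM and Tnnc2 by 0.14 RPKM, and these did not pass either. MOZ KO replicate 2 had the lowest MOZ KO level of 7 of the 8 genes, Tnnc2 being the exception. MOZ WT replicate 4 had the lowest MOZ WT level of Tnni1, Tnni3, Tnnt2 and Tnnc1.

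Isoform shares compare the forms of a subunit within a heart, so the scaling of the library cancels. Within troponin I, Tnni2 made up 3.77 ± 0.316% of the summed RPKM in MOZ KO hearts (SD, n = 3) and 1.38 ± 0.0982% in MOZ WT hearts (SD, n = 5). Tnni3 made up 29.1 ± 0.639% in MOZ KO hearts and 27.8 ± 0.383% in MOZ WT hearts. Tnni1 made up 67.1 ± 0.939% in MOZ KO hearts and 70.9 ± 0.390% in MOZ WT hearts. The ranges of the genotypes did not overlap for any of these 3 shares, the closest being that of Tnni3 with 28.39 to 29.53% in MOZ KO hearts and 27.39 to 28.36% in MOZ WT hearts. Shares of a subunit add up to the whole, so these 3 are not separate results. The level of Tnni1 overlapped between the genotypes, with means of 1493 RPKM in MOZ KO hearts and 1446 RPKM in MOZ WT hearts.

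Within troponin T, Tnnt3 made up 0.675 ± 0.120% in MOZ KO hearts and 0.432 ± 0.0489% in MOZ WT hearts, and Tnnt2 94.8 ± 0.418% in MOZ KO hearts and 95.7 ± 0.312% in MOZ WT hearts. The ranges of both were separate. The level of Tnnt2 itself was not lower in MOZ KO hearts, with a mean of 2301 RPKM against 2099 RPKM in MOZ WT hearts. Tnnt1 made up 4.54 ± 0.319% in MOZ KO hearts and 3.85 ± 0.336% in MOZ WT hearts, and its ranges overlapped. Within troponin C, Tnnc1 made up 99.9% in both genotypes. Fast forms together held 1.74 ± 0.146% of all troponin RPKM in MOZ KO hearts and 0.722 ± 0.0418% in MOZ WT hearts, without overlap.

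**Figure D2:**
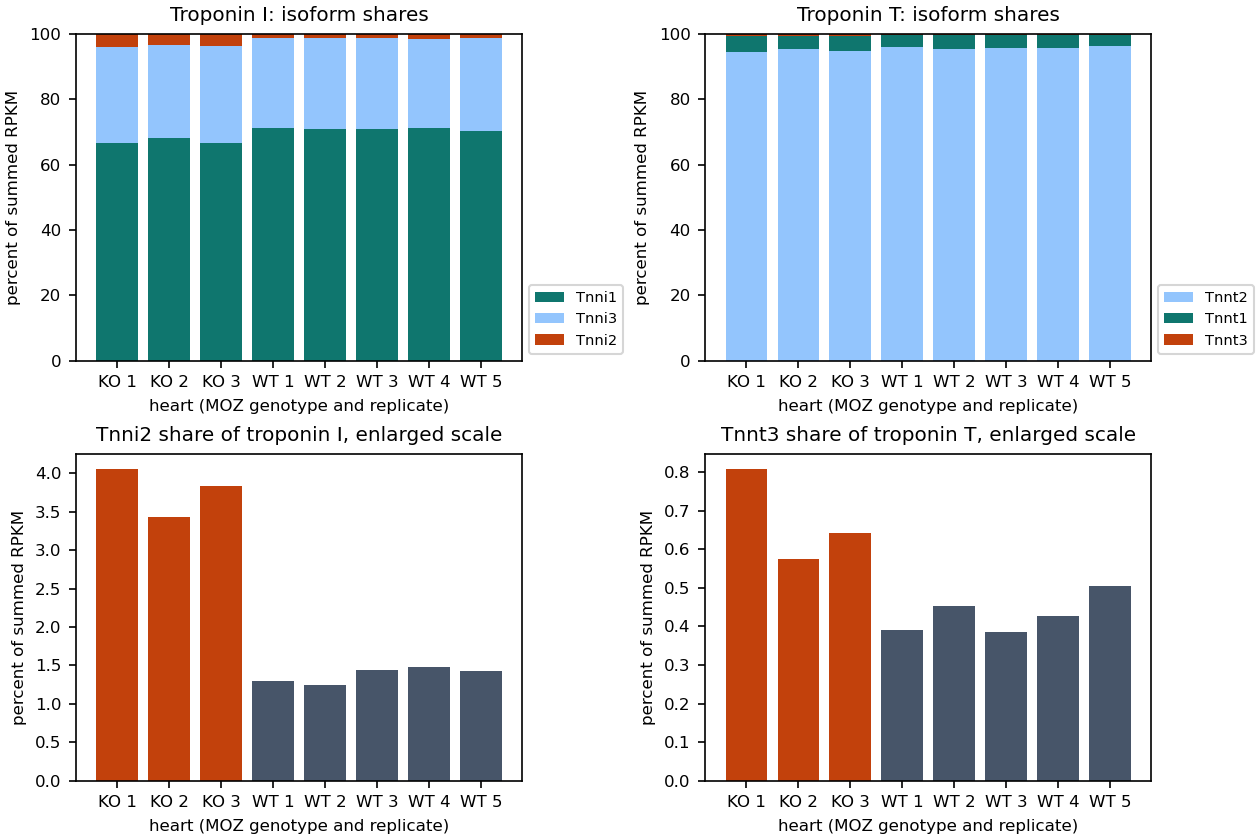
Share of each isoform in the summed RPKM of troponin I (left) and troponin T (right), in percent on the vertical axis, for each MOZ KO and MOZ WT heart on the horizontal axis; the lower panels show the fast forms Tnni2 and Tnnt3 alone on an enlarged scale (orange MOZ KO, grey MOZ WT). Tnni2 holds 3.43 to 4.05% of troponin I in MOZ KO hearts, against at most 1.48% in MOZ WT hearts.

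The totals of the subunits overlapped between the genotypes. Summed troponin I was 2227 ± 148 RPKM in MOZ KO hearts (SD, n = 3) and 2040 ± 75.6 RPKM in MOZ WT hearts (SD, n = 5), and summed troponin T was 2428 ± 160 RPKM in MOZ KO hearts and 2193 ± 85.5 RPKM in MOZ WT hearts. The ratio of troponin I to troponin T was 0.917 ± 0.0122 in MOZ KO hearts and 0.931 ± 0.0173 in MOZ WT hearts, and that of troponin C to troponin T was 0.483 ± 0.0100 in MOZ KO hearts and 0.486 ± 0.00706 in MOZ WT hearts. All 4 overlapped between the genotypes. Within the fast pair, the ratio of Tnni2 to Tnnt3 in RPKM was 5.19 ± 0.571 in MOZ KO hearts and 3.00 ± 0.420 in MOZ WT hearts, without overlap. The ratio of the embryonic to the adult cardiac troponin I, Tnni1 to Tnni3, was 2.30 ± 0.0837 in MOZ KO hearts and 2.55 ± 0.0485 in MOZ WT hearts, also without overlap.

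The summed cardiomyocyte markers, which hold no troponin gene, were higher in every MOZ KO heart than in any MOZ WT heart. The margin was small, 24022 RPKM in the lowest MOZ KO heart against 23977 RPKM in the highest MOZ WT heart. In the test over all genes 2 of 14 rose, beside 1.44% of all tested genes, 0 fell and the others did not pass. Those that rose were Myl3 (a myosin light chain of ventricle and slow fibres; log2 fold change 0.27 ± 0.06, SE) and Ryr2 (the calcium release channel; 0.25 ± 0.06, SE). The count of 2 was 0 without MOZ KO replicate 1, and 1 without MOZ KO replicate 2, without MOZ WT replicate 3, or without both MOZ WT replicates 4 and 5. Set against this sum, a scale chosen after the values were seen, Tnnt2 stood at 92.1 ± 4.31 per 1000 in MOZ KO hearts and 91.9 ± 2.49 per 1000 in MOZ WT hearts, and Tnni3 at 25.98 ± 1.80 per 1000 in MOZ KO hearts and 24.8 ± 0.609 per 1000 in MOZ WT hearts. On that scale Tnni1, Tnni3, Tnnt1, Tnnt2, Tnnc1 and Tnnc2 all overlapped between the genotypes. Tnni2 stood at 3.36 ± 0.349 per 1000 in MOZ KO hearts and 1.23 ± 0.103 per 1000 in MOZ WT hearts, and Tnnt3 at 0.655 ± 0.114 per 1000 in MOZ KO hearts and 0.415 ± 0.0546 per 1000 in MOZ WT hearts, both without overlap.

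Skeletal muscle could be carried along with a dissected heart, so the genes that mark its precursors were read in the same hearts. Myf5, an early determination factor, and Mymk, a fusion protein of myoblasts, had 0 counts in all hearts. Myod1, the determination factor of muscle, had 1 count over all hearts, Pax3 and Pax7, which mark muscle progenitors, 3 counts each, and Myog, the factor of differentiating myoblasts, 16 counts. Of 20 precursor genes, 15 were under 1 CPM in every heart, 6 were tested, and 0 rose or fell in edgeR's test, with a median log2 fold change of -0.06. DESeq2 and limma voom also passed 0, and at an unadjusted p under 0.05 there was 1 higher and 1 lower. The 2 with the smallest p were Six4, a homeobox gene (-0.41 ± 0.17, SE), and Met, the receptor of hepatocyte growth factor (0.29 ± 0.13, SE). The summed level of the 20 genes was 5.13 to 5.90 RPKM in MOZ KO hearts and 4.43 to 5.66 RPKM in MOZ WT hearts, with overlap. Chrng, a muscle acetylcholine receptor subunit, had 1.08 to 1.27 CPM in MOZ KO hearts and 0.551 to 1.05 CPM in MOZ WT hearts. Its groups were thus separate, but it did not pass (0.57 ± 0.33, SE). Of the 6 tested genes, 3 had a log2 fold change above 0. Whether skeletal muscle was carried along was not tested.

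Some other genes of fast skeletal fibres rose as well. Like all gene lists here, theirs was chosen with earlier results of these data known. Nothing is therefore read from the counts of any list beside the share of all tested genes. Of 21 tested, 5 rose, beside 1.44% of all tested genes, 0 fell and 16 did not pass, with a median log2 fold change of 0.12. Casq1, the calcium store protein of fast fibres, rose (576 ± 43.0 CPM in MOZ KO hearts and 402 ± 33.4 CPM in MOZ WT hearts), as did Myl1, a fast myosin light chain (192 ± 10.1 CPM in MOZ KO hearts and 145 ± 11.2 CPM in MOZ WT hearts). Ckm, the muscle creatine kinase, rose (4.75 ± 0.935 CPM in MOZ KO hearts and 2.40 ± 0.657 CPM in MOZ WT hearts), and so did Sypl2, a membrane protein of the triad (5.69 ± 0.525 CPM in MOZ KO hearts and 3.13 ± 0.521 CPM in MOZ WT hearts). Eno3, the muscle enolase, was the fifth. The fast and developmental myosin heavy chains Myh1, Myh2, Myh3, Myh4 and Myh8 stood between 0.203 and 1.29 CPM in every heart and did not pass. Without MOZ KO replicate 1, without MOZ KO replicate 3, or without MOZ WT replicates 4 and 5, 3 fast genes rose.

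The slow skeletal list, which the heart largely shares, had 4 of 12 tested genes that rose, beside 1.44% of all tested genes, 0 that fell and a median log2 fold change of 0.26. The 4 were Myoz2, a Z-disc protein (0.62 ± 0.10, SE), Csrp3, the muscle LIM protein (0.30 ± 0.05, SE), Casq2, the cardiac calcium store protein (0.50 ± 0.10, SE), and Myl3. The count was 2 without MOZ KO replicate 1 and 2 without MOZ WT replicates 4 and 5. All 4 also stand in other lists: Myoz2, Csrp3 and Myl3 among thick filament and Z-disc genes, and Casq2 among calcium handling genes. Myl3 is a cardiomyocyte marker too. Casq1 and Ryr2 are likewise counted in more than 1 list, so the counts of these lists are not separate results.

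Among the partners of troponin on the thin filament, 4 of 17 tested genes rose, beside 1.44% of all tested genes, and 0 fell, with a median log2 fold change of 0.05. Tpm1, the main cardiac tropomyosin to which troponin T binds, had 3801 ± 44.9 CPM in MOZ KO hearts (SD, n = 3) and 3190 ± 147 CPM in MOZ WT hearts (SD, n = 5), a log2 fold change of 0.25 ± 0.05 (SE; edgeR adjusted p = 0.00442). Tpm2, the tropomyosin of slow fibres and smooth muscle, rose by a like amount (0.24 ± 0.05, SE). Nrap, an anchor of actin filaments in developing myofibrils, had 72.3 ± 4.59 CPM in MOZ KO hearts and 45.2 ± 4.79 CPM in MOZ WT hearts (0.68 ± 0.07, SE; edgeR adjusted p = 3.46e-05). Neb, nebulin, the long thin filament protein of skeletal muscle, rose at a low level (4.70 ± 1.18 CPM in MOZ KO hearts and 2.57 ± 0.306 CPM in MOZ WT hearts). Actc1, the cardiac actin, did not pass (0.05 ± 0.05, SE). The count was 2 without MOZ KO replicate 2.

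Thick filament and Z-disc genes had 6 of 22 tested that rose, beside 1.44% of all tested genes, 0 that fell and a median log2 fold change of 0.23. Besides Myoz2 and Csrp3 they included Mybphl, a myosin-binding protein (0.37 ± 0.06, SE). Of 22 calcium handling genes, 4 rose (1.44% of all tested genes did) and 0 fell, with a median log2 fold change of 0.09. They were Casq1, Casq2, Ryr2 and Camk2d, a calcium-dependent kinase of the heart (0.19 ± 0.05, SE), and the count was 1 without MOZ KO replicate 1 and 2 without MOZ KO replicate 2, without MOZ WT replicate 3 or without both MOZ WT replicates 4 and 5. Over these muscle lists other than the regulators, genes that fell numbered 0 in edgeR's test, while DESeq2 found 2 and limma voom 1 in the calcium handling list and 0 in the others. At an unadjusted p under 0.05, 2 calcium handling genes and 1 cardiomyocyte marker were lower, and 0 of the fast, slow, thin and thick filament lists.

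Of 26 tested regulators of muscle genes, 0 rose and 4 fell, beside 1.23% of all tested genes that fell, with a median log2 fold change of -0.11. DESeq2 and limma voom also found 0 that rose, and 0 were higher at an unadjusted p under 0.05. Srf, which drives actin and sarcomere genes, had 206 ± 6.83 CPM in MOZ KO hearts and 239 ± 4.79 CPM in MOZ WT hearts (-0.21 ± 0.04, SE). Gata4 (-0.19 ± 0.04, SE), Gata5 (-0.23 ± 0.06, SE) and Hand2 (-0.22 ± 0.06, SE), transcription factors of the early heart, fell as well. The TEAD factor Tead1, which is known to bind M-CAT motifs, had 366 ± 17.2 CPM in MOZ KO hearts and 398 ± 14.0 CPM in MOZ WT hearts and did not pass. The other TEAD factors did not pass either. Their log2 fold changes were -0.01 ± 0.04 (SE) for Tead2, 0.09 ± 0.07 (SE) for Tead3 and -0.25 ± 0.11 (SE) for Tead4. The count of 4 was 1 without MOZ KO replicate 1, 1 without MOZ KO replicate 2, 2 without MOZ WT replicate 5 and 1 without both MOZ WT replicates 4 and 5.

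**Figure D3:**
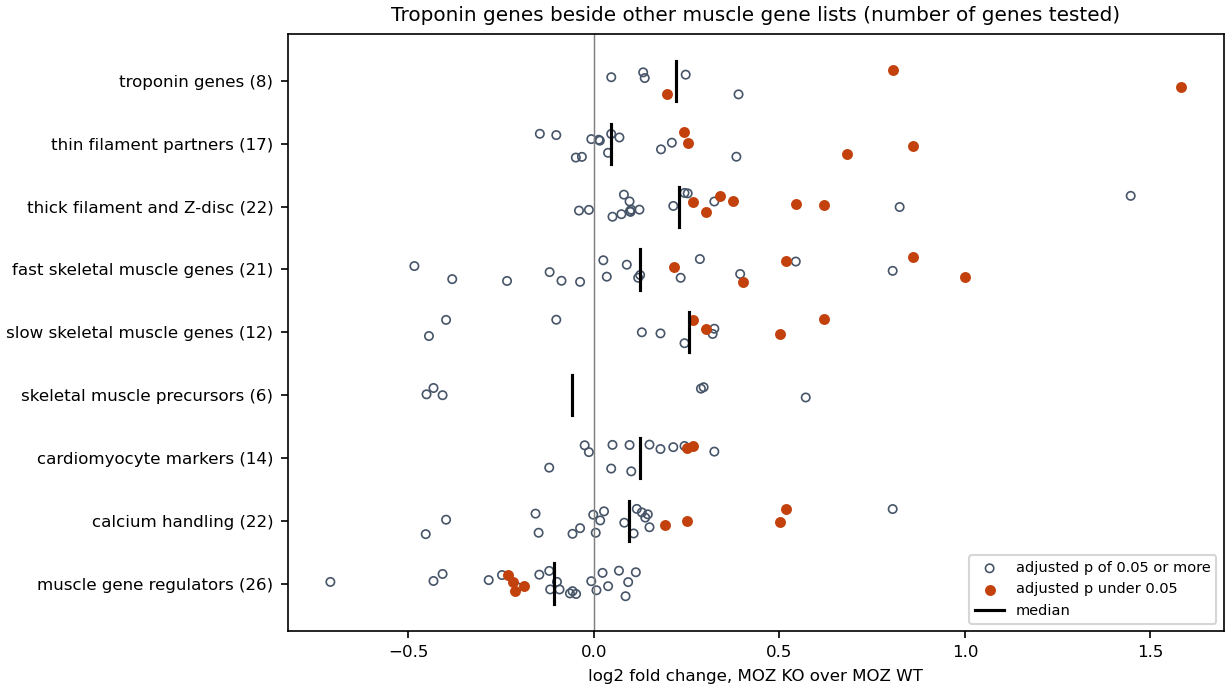
Log2 fold change of MOZ KO over MOZ WT hearts (horizontal axis) of each tested gene of the troponin family and of 8 muscle gene lists (rows, with the number of genes tested); filled points have an adjusted p under 0.05 in edgeR's test over all genes, open points do not, and black lines mark medians. Tnni2 is the rightmost filled point of the troponin row at 1.58, and the filled points of the muscle gene regulators all lie below 0.

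Of 34 tested genes within 100 kb of a troponin gene, 1 passed the threshold, a share near the 2.67% of all tested genes, 22 had a log2 fold change above 0 and the median was 0.05, within a range of -0.35 to 0.41. The gene that passed was Lsp1 (chromosome 7, 142458223 to 142494868), an actin-binding protein of leukocytes that lies between Tnni2 and Tnnt3. It had 58.7 ± 3.04 CPM in MOZ KO hearts (SD, n = 3) and 47.8 ± 4.19 CPM in MOZ WT hearts (SD, n = 5), a log2 fold change of 0.30 ± 0.07 (SE; edgeR adjusted p = 0.0187). It no longer passed without MOZ KO replicate 1, MOZ KO replicate 3 or MOZ WT replicate 3, or without both MOZ WT replicates 4 and 5 (adjusted p = 0.0685 to 0.131).

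On the other side of the fast pair, Ctsd, a lysosomal protease, had a log2 fold change of 0.11 ± 0.05 (SE), and beyond Tnnt3 Mrpl23, a mitochondrial ribosomal protein, had -0.28 ± 0.20 (SE). Neither passed. Prr33, the gene that shares bases with Tnnt3, had 0.12 ± 0.34 (SE). Around the other pairs, Ppp1r12c next to Tnnt1 had -0.02 ± 0.06 (SE), Dnaaf3 next to Tnni3 0.16 ± 0.37 (SE), Phlda3 before Tnni1 -0.17 ± 0.06 (SE) and Lad1 between Tnni1 and Tnnt2 -0.35 ± 0.22 (SE), and none passed. Near the troponin C genes, Nisch (-0.05 ± 0.05, SE) and Sema3g (0.41 ± 0.14, SE) beside Tnnc1, and Ube2c (-0.02 ± 0.06, SE) and Snx21 (-0.01 ± 0.07, SE) beside Tnnc2, did not pass either.

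**Figure D4:**
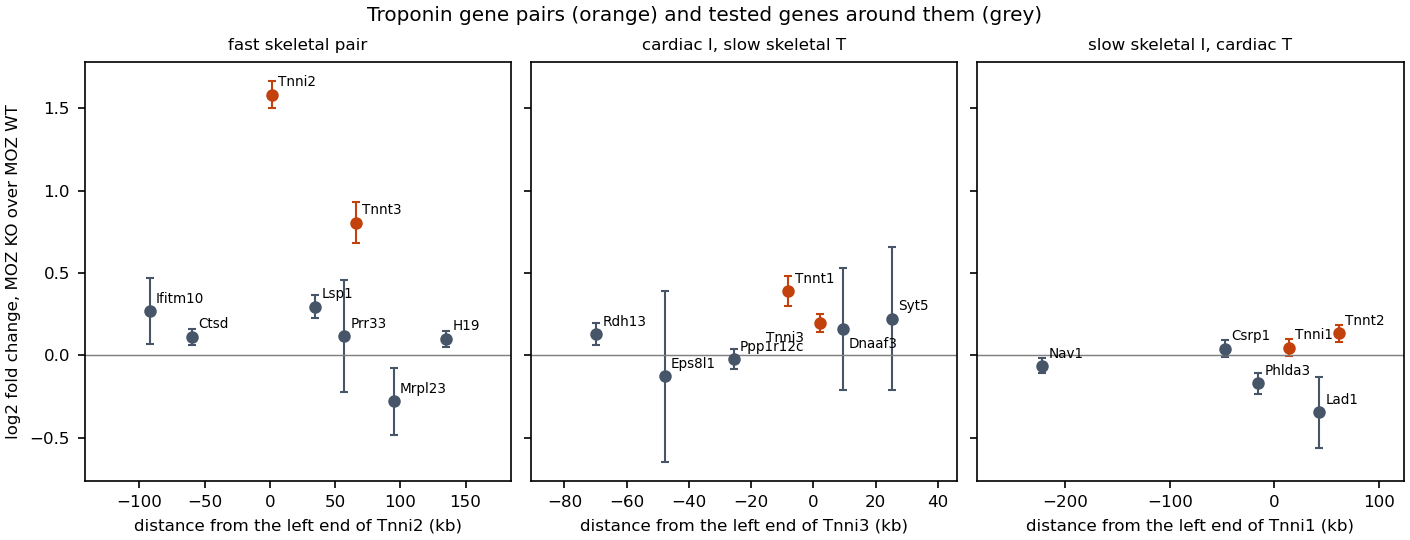
Log2 fold change of MOZ KO over MOZ WT hearts (vertical axis; bars are SE) against the distance of the gene's middle from the left end, the lowest coordinate, of the pair's troponin I gene (horizontal axis, kb), for the 3 troponin gene pairs (orange) and the tested genes within 100 kb (grey). Tnni2 at 1.58 and Tnnt3 at 0.81 stand above Lsp1 between them at 0.30.

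Of 16 tested macrophage genes, 7 rose in the same hearts, beside 1.44% of all tested genes, 0 fell and 9 did not pass, with a median log2 fold change of 1.08. The summed level was 47.7 to 52.2 RPKM in MOZ KO hearts and 24.8 to 41.7 RPKM in MOZ WT hearts. Adgre1, the F4/80 antigen, had 2.32 ± 0.136 CPM in MOZ KO hearts and 0.396 ± 0.248 CPM in MOZ WT hearts, and Laptm5, C1qb and C1qa were the next by p. The count of 7 was 4 without MOZ KO replicate 3 and 11 without MOZ WT replicate 2. Against the same 1.44%, smooth muscle genes had 2 of 10 that rose, Tagln (653 ± 13.4 CPM in MOZ KO hearts and 512 ± 47.9 CPM in MOZ WT hearts) and Cnn1, both actin-associated proteins, and 0 that fell; the count was 1 without MOZ KO replicate 1 or without both MOZ WT replicates 4 and 5. Genes of glycolysis and hypoxia had 8 of 23 that rose, again beside 1.44%, and 0 that fell, led by Ndufa4l2, Bnip3, Pdk1 and Pfkl. That count was 4 without MOZ KO replicate 1 or 2, and 5 without both MOZ WT replicates 4 and 5. The number that fell in these 3 lists was also 0 with DESeq2 and limma voom, and at an unadjusted p under 0.05 it was 0 for macrophages, 1 for smooth muscle and 1 for glycolysis and hypoxia. The part of these groups in the troponin differences was not tested.

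Erythroid genes, whose level reflects the blood left in a heart, had 0 of 12 that rose or fell in edgeR, DESeq2 and limma voom (also 0 at an unadjusted p under 0.05) and a median log2 fold change of -0.25, with Klf1 (-0.37 ± 0.57, SE) and Tal1 (-0.20 ± 0.32, SE) the smallest in p. The summed erythroid level ranged from 7282 to 12579 RPKM in MOZ KO hearts and from 5268 to 21689 RPKM in MOZ WT hearts, with MOZ WT replicate 4 the highest. That heart also had the lowest MOZ WT level of Tnnt2, Tnni1, Tnni3 and Tnnc1. Whether blood content enters the troponin levels was not tested. Genes that handling is known to induce, the immediate early and heat shock list, had 0 of 15 that passed in edgeR, DESeq2 and limma voom (2 higher and 1 lower at an unadjusted p under 0.05, and 1 past the threshold without MOZ KO replicate 2), with Ier3 (0.43 ± 0.18, SE) and Hsph1 (-0.19 ± 0.08, SE) the smallest in p. The summed level of this list was 422 RPKM in MOZ KO replicate 1, above every other heart. It was 330 and 328 RPKM in MOZ KO replicates 2 and 3, and 307 to 350 RPKM in MOZ WT hearts. The part of handling in the troponin differences was not tested.

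The cardiac troponin genes varied together from heart to heart. After the mean of each genotype was subtracted, the log2 CPM of Tnnt2 had a Pearson r of 0.96 with Tnnc1, 0.93 with Tnni3 and 0.90 with Tnni1 over the 8 hearts, but 0.65 with Tnnt1, 0.53 with Tnni2 and 0.43 with Tnnt3. Tnni2 and Tnnt3 had an r of 0.50 on that scale. Without that subtraction, the 5 of 11329 genes most like Tnnt2 were Tnnc1 (0.978), Crip2 (0.975), Tbcb (0.975), a gene with no symbol in the table used (0.971) and Tnni3 (0.966). After it they were Imp4, Anapc11, Ndufc2, Ino80b and Zfp281 (0.97 to 0.99). For Tnni2 they were Igfbp2 (0.98), Uchl1 (0.98), Fstl4 (0.97), Aqp4 (0.97) and Cmc1 (0.97), a ranking that the genotype difference of Tnni2 itself enters. After the subtraction they were Wasl, Pop7, Plekha8, Nudt9 and Med28 (0.97 to 0.99), with log2 fold changes of -0.07 to 0.04. The points of each correlation share library, depth and scaling, so these values describe the 8 hearts and carry no test.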

How the data were processed

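RNA-seq libraries of 8 hearts (3 MOZ KO, 5 MOZ WT, grouped by the labelled genotype) were read as deposited. The deposited table holds whole-number read counts, not normalized by the authors, for 27179 Entrez gene IDs. Libraries were made with a stranded kit, per the labels' protocols, and reads were demultiplexed with bcl2fastq and counted with featureCounts on mm10, per the submitters' processing notes; no label names the aligner, annotation, strand setting or versions. The 8 deposited single-heart files hold the same counts as the table. Symbols (25275 IDs) and positions came from RefSeq for GRCm38.p6, the assembly of mm10.

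Genes were filtered with filterByExpr and libraries scaled by TMM. All 15086 genes left were tested with edgeR's robust quasi-likelihood fit, with no covariate and Benjamini-Hochberg adjustment at 0.05. The SE of a log2 fold change is its size divided by the root of the F statistic. RPKM used the deposited gene lengths and scaled library sizes; shares rest on those lengths. Log2 CPM for correlations used a prior count of 2 and genes with an average of at least 2. The biological coefficient of variation was 9.10%. Counting error adds to this spread between hearts, and for genes of a few CPM or less it can be as large.

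The troponin genes and the 13 gene lists were chosen with earlier results of these data known. Named genes were all troponin genes; in each list up to 4 past the threshold by smallest p, or the 2 of smallest p where none passed; neighbours past the threshold and the nearest tested gene on each side; and the 5 genes most like Tnni2 and Tnnt2. A gene that this rule names is not reported here. Other genes named (Myf5, Mymk, Myod1, Pax3, Pax7, Myog, the fast myosin heavy chains, Eno3, Actc1, Tead1 and Prr33) were chosen after their values were seen. So were Chrng, Tead2, Tead3 and Tead4. Same-numbered hearts did not vary together, so replicate numbers were not used as pairs. Alternatives were DESeq2, limma voom, other scalings and filters, non-robust moderation, the replicate block and leaving out hearts. The test was checked on simulated counts. Fits ran in edgeR 4.0.16, DESeq2 1.42.0 and limma 3.58.1 under R 4.3.3, and summaries in pandas 2.3.3 under Python 3.11.15.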

Additional observations from a re-analysis of the deposited data

Results flagged for a closer look

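Sema3g, the tested gene to the right of Tnnc1, had 1 MOZ WT heart at 8.16 CPM while the other 4 lay between 6.61 and 7.04 CPM, a gap wide for the range of 5 hearts. It was the 1 of 28 sets of 5 MOZ WT values so marked, and chance marks about 1 in 20 such sets.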

How the results depend on the processing

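Tnni2 and Tnnt3 kept their direction and stayed past the threshold in all 17 alternatives. Tnni3 kept its direction in all 17 but lost the threshold in 10: its log2 fold change was 0.18 with limma voom, 0.20 with DESeq2 size factors in edgeR, 0.20 without robust moderation, 0.16 with the replicate block and 0.17 without MOZ WT replicates 4 and 5 (the hearts with Xist RNA), and 0.13 to 0.21 in the 5 runs without 1 heart that lost it (0.13 to 0.26 over all 8 such runs). Tnnt1 passed in 6: 0.39 with DESeq2, 0.38 with limma voom and 0.39 without robust moderation, and 0.34 to 0.49 in 3 of the runs without 1 heart (0.32 to 0.49 over all 8). The causes were not tested. The number of troponin genes past the threshold was 2 to 4. Tnni1 was at -0.003 without MOZ KO replicate 3. Tnnc2 has no value under a filter at 1 CPM in 3 hearts. Over all genes, 403 passed, against 558 with DESeq2, 186 with the replicate block over replicates 1 to 3 and 194 to 496 when hearts were left out in turn (lowest without MOZ KO replicate 1; 263 without MOZ KO replicate 3). The replicate block rests on replicate numbers that share nothing else: the correlations of same-numbered hearts were 0.066, -0.119 and -0.054, and no heart was most like its own number. Lsp1 did not pass with that block either (0.27, adjusted p = 0.155, edgeR). From counts with no length, shares were 73.8% (MOZ KO) and 76.8% (MOZ WT) for Tnni1, 2.485% and 0.895% for Tnni2, 23.7% and 22.3% for Tnni3, 3.59% and 3.04% for Tnnt1, and 95.8% and 96.6% for Tnnt2, in the same order of genotypes. The direction of each was as with lengths. Depth limits Tnnc2, at 4 to 19 counts per heart. Of the 17 alternatives, 5 moved the count that rose by a wide margin for cardiomyocyte markers and 5 for calcium handling. For glycolysis and hypoxia 4 did so, and for slow skeletal and for smooth muscle genes 3 each. For thin filament partners 2 did, and for thick filament and Z-disc genes 1. The count of regulators that fell moved in 5. Not all of these are named above.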
